A study of Mus musculus with 2 samples.

Results

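Pcsk1, Pcsk2, Cpe, Pcsk1n, Scg5 and Pam are the genes of the main enzymes that turn prohormones into hormones in the secretory granule, together with the partner proteins of the convertases. These 6 genes, of 33038 listed in either table, were taken by name and followed across the hormone-producing cells of the mouse islet of Langerhans. They were read in 2 RevGel-seq libraries, a single-cell RNA-seq method in which each cell is tied to a barcoded bead inside a gel that can be melted again. Both libraries came from control islets of C57BL/6J mice (8 weeks old, male according to the methods), handpicked after collagenase digestion, with no treatment or allele named for them. The methods call the libraries technical replicates of one islet preparation, with 10000 input cells each, so the spread between them and every p-value below cover preparation and sequencing of that one cell suspension and no difference between animals. Cells were grouped only by the hormones they carried: insulin (Ins1 and Ins2 together), glucagon (Gcg), somatostatin (Sst) and pancreatic polypeptide (Ppy) each counted as present from 1% of the transcripts (unique molecular identifiers, UMIs) of the cell. None of the 6 genes took part in this grouping.

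Islet hormones are made as longer precursors and cut to size in the granule. Prohormone convertase 1/3 (Pcsk1) and prohormone convertase 2 (Pcsk2) cut after pairs of basic residues, carboxypeptidase E (Cpe) trims the basic residues left at the new end, and peptidylglycine alpha-amidating monooxygenase (Pam) turns a terminal glycine into an amide. Both convertases have a dedicated partner: Pcsk1n encodes proSAAS, an inhibitor of prohormone convertase 1/3, and Scg5 encodes 7B2, which prohormone convertase 2 needs to mature. In the textbook account, beta cells use both convertases on proinsulin, whereas alpha cells use prohormone convertase 2 to make glucagon from proglucagon. Prohormone convertase 1/3 in other cells cuts the same proglucagon into glucagon-like peptides.

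In GENCODE M21 on build GRCm38, Pcsk1 (ENSMUSG00000021587) at chr13:75089826-75134861 on the plus strand and Pcsk2 (ENSMUSG00000027419) at chr2:143546156-143816285 on the plus strand encode the convertases. Their partners are Pcsk1n (ENSMUSG00000039278) at chrX:7919822-7924410 on the plus strand and Scg5 (ENSMUSG00000023236) at chr2:113776362-113829121 on the minus strand. The end-trimming and amidating enzymes are Cpe (ENSMUSG00000037852) at chr8:64592542-64693054 on the minus strand and Pam (ENSMUSG00000026335) at chr1:97795114-98095646 on the minus strand. Only reads on exons were counted.

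The 4 upstream sequences below are those of both convertases and their partner genes. Pcsk2, Scg5 and Pcsk1n were each called lower in insulin-only than in Gcg-only cells while Pcsk1 was called higher. Cpe and Pam were also called lower there and are not shown. Each is the 200 bases before the annotated start, on build GRCm38.p6 and 5′ to 3′ on the strand of the gene. The start is that of RefSeq or of GENCODE M21, whichever lies further upstream. Capitals mark 3 motifs searched on both strands, the cAMP response element TGACGTCA, its shorter core TGACG, which the full element holds on both strands, and the GC box GGGCGG, and marked matches may overlap.

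Pcsk1, chr13:75089626-75089825, plus strand: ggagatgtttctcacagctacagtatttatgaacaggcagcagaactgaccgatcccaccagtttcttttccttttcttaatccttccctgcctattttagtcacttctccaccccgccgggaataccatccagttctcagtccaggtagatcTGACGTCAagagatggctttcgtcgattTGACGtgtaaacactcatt

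Pcsk2, chr2:143545933-143546132, plus strand: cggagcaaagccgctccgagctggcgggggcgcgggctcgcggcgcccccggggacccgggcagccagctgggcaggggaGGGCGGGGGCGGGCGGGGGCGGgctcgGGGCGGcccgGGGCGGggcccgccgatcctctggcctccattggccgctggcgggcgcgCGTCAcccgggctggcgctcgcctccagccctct

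Scg5, chr2:113829122-113829321, minus strand: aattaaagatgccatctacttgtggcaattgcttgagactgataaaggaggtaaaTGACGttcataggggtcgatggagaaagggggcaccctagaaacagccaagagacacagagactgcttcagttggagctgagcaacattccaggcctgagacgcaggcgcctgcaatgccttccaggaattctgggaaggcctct

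Pcsk1n, chrX:7919622-7919821, plus strand: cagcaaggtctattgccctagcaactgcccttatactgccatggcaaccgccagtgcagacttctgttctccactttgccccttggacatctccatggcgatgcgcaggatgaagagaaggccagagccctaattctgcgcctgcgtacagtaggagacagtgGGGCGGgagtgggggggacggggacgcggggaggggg

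The window of Pcsk1 held 1 full cAMP response element, which began 47 bases before the start, 3 matches of the core with those inside it counted, and 0 GC boxes, and 46% of its bases were G or C. The window of Pcsk2 held 6 GC boxes, 2 of which share bases, and 1 core at 84% G or C. The full element occurred in 1.47% of the 32851 promoters of the same length in RefSeq, the core in 15.7% and the GC box in 31.0%, and their median share of G and C was 53%. The windows of Scg5 (50.5%) and Pcsk1n (61%) lay on either side of that median, with 1 core and 1 GC box. A match of these letters is a description of the sequence and not a binding site.

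The depth was 15931154 UMIs over 735 cells in library 1 and 17440292 UMIs over 748 cells in library 2, with 0 barcodes in common. Insulin alone was present in 182 and 190 cells, Gcg alone in 182 and 174, Sst alone in 35 and 23 and Ppy alone in 54 and 68 (library 1 and library 2, as in all pairs of values below). Gcg with Ppy was found in 65 and 86 cells, Sst with Ppy in 77 and 71, insulin with any other hormone in 37 and 27, and Gcg with Sst, with or without Ppy, in 12 and 17. Of the cells with none of these hormones, 27 and 33 carried endothelial markers and 40 and 39 leukocyte markers, and these served as background for free RNA. Among the 4 groups with 1 hormone, 6 of 6 beta cell markers were highest in insulin-only cells in both libraries, 4 of 6 alpha cell markers in Gcg-only cells, 5 of 6 delta cell markers in Sst-only cells and 3 of 6 gamma cell markers in Ppy-only cells. The gamma cell markers that were not highest in Ppy-only cells were Aqp3, Meis2 and Fgb, of which Aqp3 was at 0 UMIs there in both libraries. Levels are given as CPM, the UMIs of a gene per 1000000 UMIs of the group with the 5 hormone genes left out, and compare groups for 1 gene. They do not rank one gene against another, since transcripts differ in length and capture.

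Pcsk1 separated the hormone groups most widely of the 6 genes, and by CPM its order ran against that of Pcsk2. Insulin-only cells had 575 CPM (library 1) and 568 CPM (library 2). Sst-only cells had 108 and 77.1 CPM, Ppy-only cells 55 and 67.4 CPM and Gcg-only cells 4.19 and 2.48 CPM, the last from 11 and 7 UMIs. Of these 4 groups, insulin-only cells lay above and Gcg-only cells below all others, while Sst-only and Ppy-only cells lay in between without overlap of their ranges. Fitted over the groups, Pcsk1 was 173-fold higher in insulin-only than in Gcg-only cells (log2 fold change 7.44, SE 0.49, edgeR adjusted p = 3.08e-08). Without library 2 the fold was 108, and without library 1 it was 163. Single-library folds, here and below, were not fitted. They are differences of log CPM with a small count added, which makes folds smaller where counts are low. In the fit, Pcsk1 in insulin-only cells was 6.74-fold higher than in Sst-only cells (log2 fold change 2.75, SE 0.40, edgeR adjusted p = 0.000219) and 9.61-fold higher than in Ppy-only cells (log2 fold change 3.26, SE 0.36, edgeR adjusted p = 9.57e-06).

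Sst-only and Ppy-only cells held far more Pcsk1 than Gcg-only cells. The fitted level in Sst-only cells was 25.7-fold that of Gcg-only cells (Gcg minus Sst, log2 fold change -4.68, SE 0.64, edgeR adjusted p = 0.000129), and that in Ppy-only cells 18-fold (Gcg minus Ppy, log2 fold change -4.17, SE 0.56, edgeR adjusted p = 0.000198). Without library 2 the latter was 10.1-fold. Sst-only and Ppy-only cells were not told apart, with log2 fold change 0.51, SE 0.46, edgeR adjusted p = 0.58 and an interval of -0.42 to 1.44 (2 SE to each side).

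**Figure D1:**
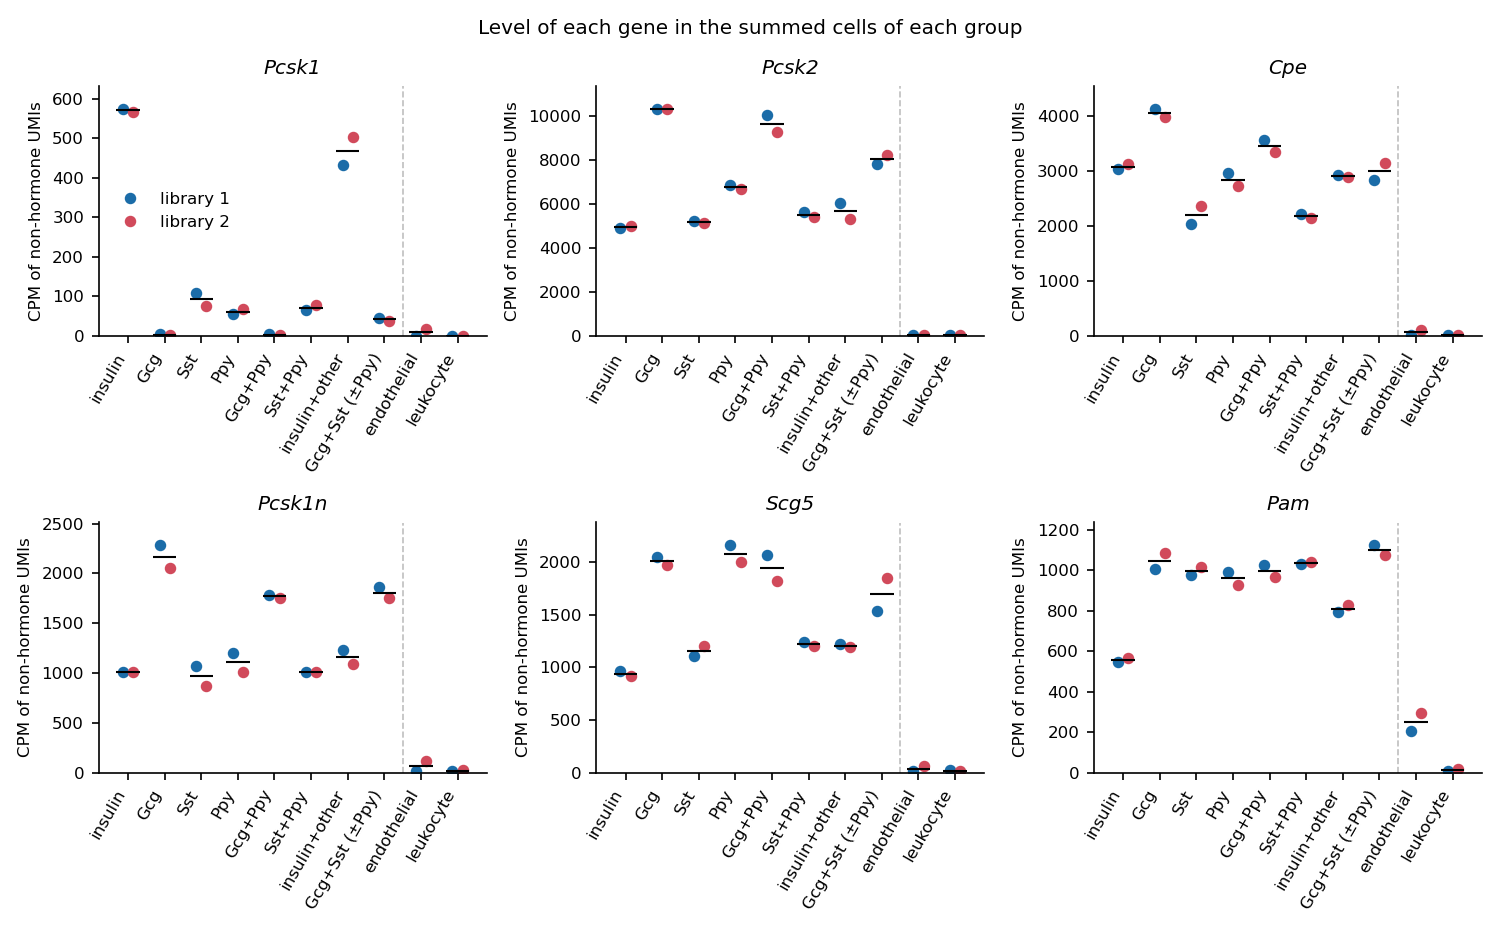
Level of each gene (vertical axis, CPM of non-hormone UMIs, each panel on its own scale from 0) in the summed cells of each hormone group and of endothelial and leukocyte cells; dots are libraries 1 and 2 and lines their mean. Pcsk1 stands at 575 and 568 CPM in insulin-only cells and at 4.19 and 2.48 CPM in Gcg-only cells, while Pcsk2, Pcsk1n and Scg5 are higher in Gcg-only than in insulin-only cells in both libraries.

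In single cells of the 4 groups, the share with Pcsk1 was highest among insulin-only and lowest among Gcg-only cells of both libraries. The median insulin-only cell had 475 CPM of Pcsk1 in library 1, with quartiles at 276 and 715 CPM, and 473 CPM in library 2, with quartiles at 239 and 759.8 CPM. The median Ppy-only cell and the median Gcg-only cell had 0 in both libraries, and the median Sst-only cell had 72.2 CPM and 0. At least 1 UMI of Pcsk1 was found in 95.6% and 94.2% of insulin-only cells, 57.1% and 39.1% of Sst-only, 48.1% and 41.2% of Ppy-only, 3.85% and 4.02% of Gcg-only and 0% and 0% of leukocyte cells. Their depths differed, from a median of 10431 and 11176 non-hormone UMIs in leukocyte cells to 18605 and 20180.0 in Ppy-only cells. After each cell was thinned to 2000 non-hormone UMIs, which no cell fell short of, the share was 61.5% (95% exact binomial interval 54.1% to 68.6%) and 63.2% (55.9% to 70.0%) in insulin-only cells. It was 11.4% and 13% in Sst-only cells, 16.7% and 11.8% in Ppy-only cells, 1 of 182 and 1 of 174 in Gcg-only cells and 0 of 40 and 0 of 39 in leukocyte cells, where a count of 0 allows up to 7.5% and 7.69%. The intervals of insulin-only cells did not overlap those of any of these groups, whereas those of Sst-only and Ppy-only cells overlapped.

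Leukocyte cells, which should lack Pcsk1, had 0 UMIs of it in both libraries, which at the depth of each library allows up to 5.42 and 5.24 CPM (3 counts), beside the 4.19 and 2.48 CPM of Gcg-only cells. The 7 Gcg-only cells of each library with a Pcsk1 UMI had a median of 0.174% and 0.202% insulin among their UMIs, against 0.189% and 0.164% in those without. The part of free RNA in these UMIs was not tested.

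**Figure D2:**
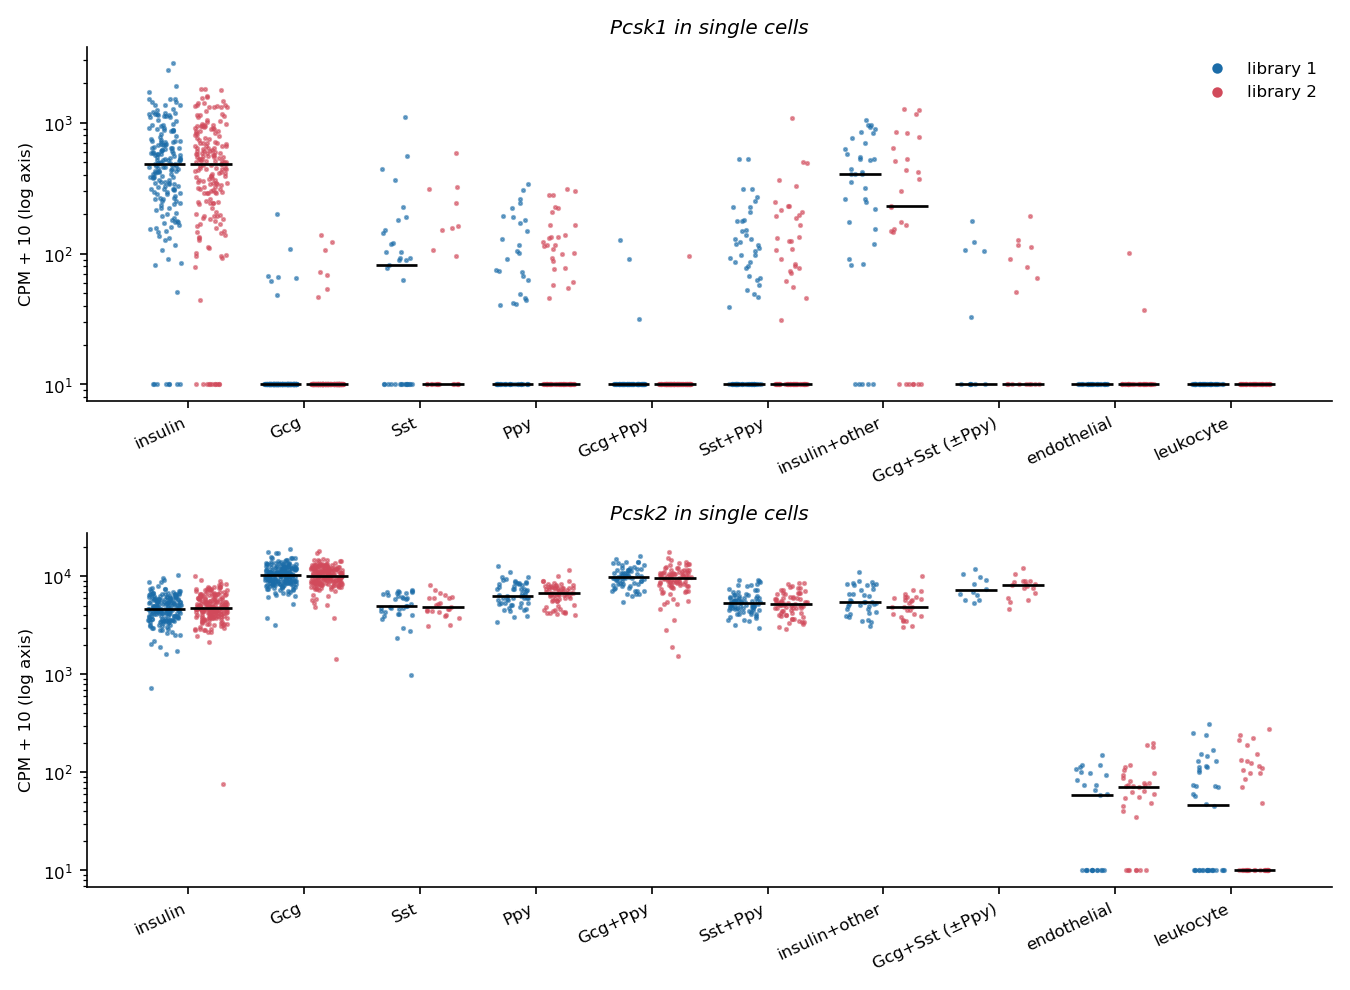
Pcsk1 (upper panel) and Pcsk2 (lower panel) in single cells, as CPM of non-hormone UMIs with 10 added on a log axis, by group; dots are cells of library 1 and library 2 and lines are medians, and cells without a UMI lie at 10. Pcsk2 was found in every cell of the groups with a hormone, whereas the median Pcsk1 was 0 in Gcg-only and Ppy-only cells of both libraries.

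Pcsk2, the convertase that alpha cells use on proglucagon, ran in the opposite order by CPM. Gcg-only cells had 10326 CPM (library 1) and 10301 CPM (library 2). Ppy-only cells had 6870.2 and 6677 CPM, Sst-only cells 5245 and 5122 CPM and insulin-only cells 4885 and 4983 CPM. No 2 of these groups overlapped, although Sst-only and insulin-only cells were close. Pcsk2 was 2.04-fold lower in insulin-only than in Gcg-only cells (log2 fold change -1.03, SE 0.07, edgeR adjusted p = 8.17e-08), and 2.17-fold higher in Gcg-only than in Sst-only cells (log2 fold change 1.12, SE 0.07, edgeR adjusted p = 9.90e-08). Ppy-only cells lay in between, 1.54-fold below Gcg-only cells (Gcg minus Ppy, log2 fold change 0.63, SE 0.07, edgeR adjusted p = 6.36e-05), 1.32-fold above insulin-only cells (insulin minus Ppy, log2 fold change -0.40, SE 0.07, edgeR adjusted p = 0.00104) and 1.4-fold above Sst-only cells (Sst minus Ppy, log2 fold change -0.49, SE 0.07, edgeR adjusted p = 0.000471). These 3 calls were lost when each sum held 23 cells, with edgeR adjusted p = 0.135, 0.571 and 0.331. Insulin-only and Sst-only cells were not told apart (log2 fold change 0.09, SE 0.07, edgeR adjusted p = 0.5, interval -0.06 to 0.23). The sign of this fitted value was opposite to the order of their CPM. With total UMI scaling, which used the sum of non-hormone UMIs alone, the log2 fold change was -0.073. The order of these 2 groups thus depended on the scaling. As CPM of all UMIs, hormone genes included, insulin-only cells had 3038 and 2922, Sst-only cells 4744 and 4603 and Ppy-only cells 4445 and 4300. Sst-only cells then lay above Ppy-only cells. Before thinning, at least 1 UMI of Pcsk2 was found in every cell of the 4 groups. Leukocyte cells, which should lack it, had 57.8 and 52.4 CPM and a UMI in 12.5% and 10.3% of cells after thinning, and endothelial cells 43.8 and 52.9 CPM.

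The ratio of both convertases within one sum does not depend on scaling. Its log2 value (Pcsk1 UMIs over Pcsk2 UMIs) was -3.11 ± 0.03 in insulin-only cells (mean ± SD, n = 2 libraries, as for all values with ± below), -5.83 ± 0.32 in Sst-only cells, -6.80 ± 0.24 in Ppy-only cells and -11.64 ± 0.53 in Gcg-only cells. In counts, 116 ± 2.68 Pcsk1 UMIs stood beside 1000 Pcsk2 UMIs in insulin-only cells, 17.8 ± 3.87 in Sst-only cells, 9.05 ± 1.48 in Ppy-only cells and 0.323 ± 0.117 in Gcg-only cells. The libraries of different groups did not overlap.

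**Figure D3:**
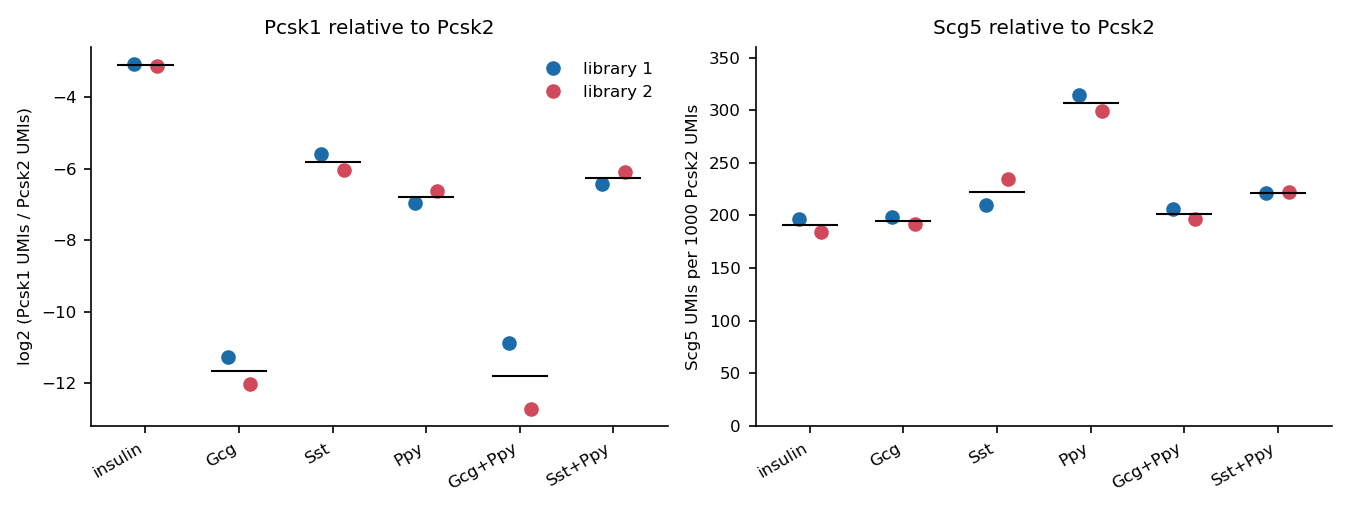
Left, log2 of Pcsk1 UMIs over Pcsk2 UMIs, and right, Scg5 UMIs per 1000 Pcsk2 UMIs (axis from 0), in the summed cells of 6 hormone groups; dots are libraries 1 and 2 and lines their mean. Scg5 relative to Pcsk2 was close in insulin-only cells (190.5 ± 8.68) and Gcg-only cells (195 ± 4.69) and highest in Ppy-only cells (307 ± 10.8).

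Scg5, the gene of the Pcsk2 partner 7B2, was high in both Gcg-only and Ppy-only cells. Gcg-only cells had 2047 CPM (library 1) and 1974 CPM (library 2), and Ppy-only cells had 2161 and 1998 CPM. Their ranges overlapped, and no difference was called (log2 fold change -0.03, SE 0.10, edgeR adjusted p = 0.918, interval -0.23 to 0.17). Sst-only cells had 1103 and 1203 CPM and insulin-only cells 960.3 and 918 CPM. Insulin-only cells were 2.09-fold below Gcg-only (log2 fold change -1.06, SE 0.10, edgeR adjusted p = 1.43e-06) and 2.13-fold below Ppy-only cells (log2 fold change -1.09, SE 0.10, edgeR adjusted p = 1.56e-06). Sst-only cells were 1.9-fold below Gcg-only (Gcg minus Sst, log2 fold change 0.93, SE 0.10, edgeR adjusted p = 1.75e-05) and 1.94-fold below Ppy-only cells (Sst minus Ppy, log2 fold change -0.96, SE 0.10, edgeR adjusted p = 1.87e-05). Relative to its partner, Scg5 was nearly level between insulin-only cells, with 197 and 184 Scg5 UMIs per 1000 Pcsk2 UMIs, and Gcg-only cells, with 198 and 192. Ppy-only cells had 314 and 299, above the other 5 groups of the plot in both libraries. These ratios were described and not tested.

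Pcsk1n, the gene of the Pcsk1 inhibitor proSAAS, did not follow Pcsk1. It was highest in Gcg-only cells, with 2284 CPM (library 1) and 2051 CPM (library 2), and stood at 1199.7 and 1015 CPM in Ppy-only, 1070.2 and 868 CPM in Sst-only and 1007 and 1007 CPM in insulin-only cells. Gcg-only cells overlapped no other of these groups, whereas the ranges of Sst-only cells overlapped those of Ppy-only and insulin-only cells. Gcg-only cells were 2.1-fold above insulin-only (insulin minus Gcg, log2 fold change -1.07, SE 0.12, edgeR adjusted p = 1.15e-05), 2.43-fold above Sst-only (log2 fold change 1.28, SE 0.13, edgeR adjusted p = 6.35e-06) and 1.98-fold above Ppy-only cells (log2 fold change 0.99, SE 0.12, edgeR adjusted p = 0.000107). Among the other 3 groups no difference was called, with intervals of -0.04 to 0.46 for insulin minus Sst, -0.33 to 0.16 for insulin minus Ppy and -0.55 to -0.04 for Sst minus Ppy. The last was called when no filter on low counts was used (log2 fold change -0.35, edgeR adjusted p = 0.0412).

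Cpe, which trims the ends that both convertases leave, was highest in Gcg-only and, with hormone UMIs left out, lowest in Sst-only cells among the 4 groups with 1 hormone. Gcg-only cells had 4140.3 CPM (library 1) and 3989.6 CPM (library 2). Insulin-only cells had 3038 and 3132 CPM, Ppy-only cells 2967 and 2734 CPM and Sst-only cells 2035 and 2363 CPM. No ranges overlapped. Gcg-only cells were 1.29-fold above insulin-only (insulin minus Gcg, log2 fold change -0.36, SE 0.09, edgeR adjusted p = 0.0102), 2.02-fold above Sst-only (log2 fold change 1.01, SE 0.10, edgeR adjusted p = 3.89e-06) and 1.44-fold above Ppy-only cells (log2 fold change 0.53, SE 0.09, edgeR adjusted p = 0.00204). Sst-only cells were 1.57-fold below insulin-only (insulin minus Sst, log2 fold change 0.65, SE 0.10, edgeR adjusted p = 0.000246) and 1.39-fold below Ppy-only cells (Sst minus Ppy, log2 fold change -0.48, SE 0.10, edgeR adjusted p = 0.00455). Insulin-only and Ppy-only cells were not told apart (interval -0.02 to 0.36). With 23 cells in each sum, the calls against Gcg-only cells for insulin (edgeR adjusted p = 0.266) and Ppy (0.128) and that between Sst and Ppy (0.181) were lost. Every cell of the 4 groups had a UMI of Cpe before thinning.

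Pam was set apart by insulin-only cells. They had 545 CPM (library 1) and 568 CPM (library 2), while Gcg-only cells had 1006 and 1085 CPM, Sst-only cells 978 and 1016 CPM and Ppy-only cells 993 and 928 CPM. Insulin-only cells lay below the other 3 groups in both libraries, and those 3 were close to one another. As CPM of all UMIs, Ppy-only cells had 642 and 597 against 884 and 913 in Sst-only cells. Insulin-only cells were 1.83-fold below Gcg-only (log2 fold change -0.87, SE 0.12, edgeR adjusted p = 6.58e-05), 1.6-fold below Sst-only (log2 fold change -0.68, SE 0.12, edgeR adjusted p = 0.00158) and 1.66-fold below Ppy-only cells (log2 fold change -0.73, SE 0.12, edgeR adjusted p = 0.000478). With 23 cells in each sum these calls were lost (edgeR adjusted p = 0.0968, 0.174 and 0.192), with log2 fold changes of -0.61, -0.54 and -0.51. Among the other groups the intervals were -0.05 to 0.44 for Gcg minus Sst, -0.10 to 0.38 for Gcg minus Ppy and -0.30 to 0.20 for Sst minus Ppy, with no call. The summed level of 6 endothelial markers was 113 and 28.2 CPM in insulin-only, 49.1 and 159 CPM in Gcg-only, 37.8 and 48.1 CPM in Ppy-only and 349 and 30.2 CPM in Sst-only cells, against 14991 and 11951 CPM in endothelial cells, and its part in the level of Pam was not tested. Of the 4 hormones, pancreatic polypeptide is the one known to end in an amide. The span of B230216N24Rik, introns included, overlaps exon sequence of Pam on the same strand. On the other strand, the spans of Pcsk2os1 and Pcsk2os2 overlap exon sequence of Pcsk2, and that of Eras overlaps exon sequence of Pcsk1n. Whether counting used strand is not given in the sources used here.

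**Figure D4:**
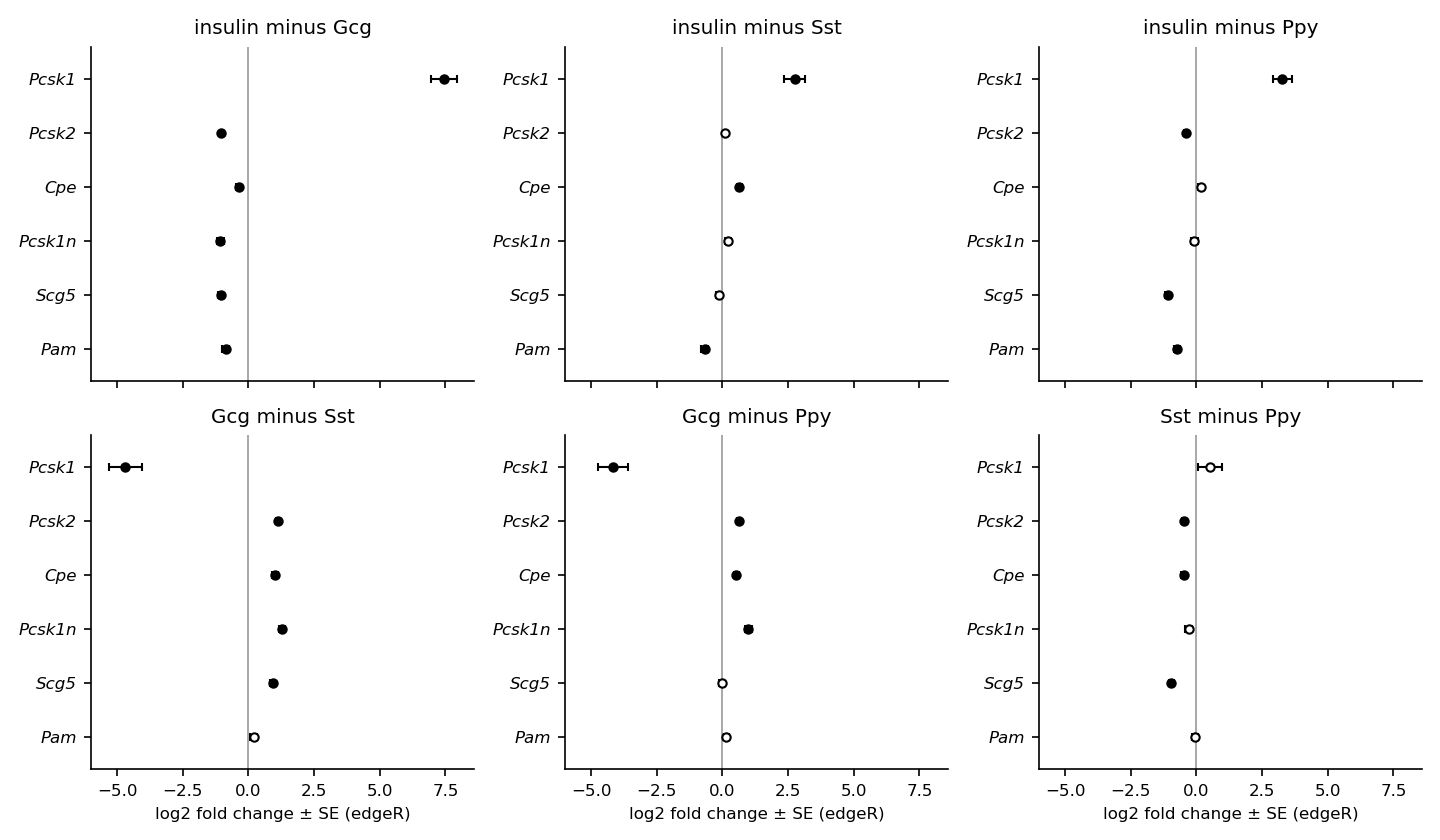
Fitted log2 fold change between pairs of groups with 1 hormone (horizontal axis, first group minus second, bars ± SE) for each of the 6 genes; filled dots have an edgeR adjusted p under 0.05. Pcsk1 is at 7.44 for insulin minus Gcg, while the other 5 genes lie between -1.07 and -0.36 there.

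Counted over the list, all 6 genes were called between insulin-only and Gcg-only cells, 1 higher and 5 lower in insulin-only cells, beside 25% of all genes, 12.8% higher and 12.2% lower in the group named first, among 14955 genes tested. The median of the 6 log2 fold changes was -0.95, against 0 over all genes. Between insulin-only and Sst-only cells 3 of 6 were called (14.5% of all genes, 7.48% higher and 6.97% lower, median of the 6 genes 0.15 against 0.03), and between insulin-only and Ppy-only cells 4 (20.2% of all genes, 10.3% higher and 9.87% lower, -0.24 against 0.01). Gcg-only and Sst-only cells differed in 5 of 6, all but Pam (12.3% of all genes, 6% higher and 6.31% lower, 0.97 against 0.04). Gcg-only and Ppy-only cells differed in 4 (9.49% of all genes, 4.72% higher and 4.77% lower, 0.34 against 0) and Sst-only and Ppy-only cells in 3 (9.08% of all genes, 4.67% higher and 4.41% lower, -0.39 against -0.02). These comparisons share groups, so their values are set side by side and not correlated. 

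Cells with Ppy beside Gcg or Sst were compared with those of either hormone alone. The levels of the 6 genes in cells with Gcg and Ppy were near those of Gcg-only cells. They had Pcsk1 at 5.38 and 1.39 CPM, Pcsk2 at 10033 and 9263 CPM, Scg5 at 2065 and 1824 CPM and Pam at 1025 and 965 CPM. Against Gcg-only cells 0 of 6 genes were called by edgeR or by DESeq2. By edgeR 0.0401% of all genes were called, 0.0334% higher and 0.00669% lower. An unadjusted edgeR p under 0.05 was found for 2 of the 6, beside 843 of 14955 genes. Those 2 were Cpe, at 3578 and 3358 CPM (log2 fold change -0.24, edgeR adjusted p = 0.819), and Pcsk1n, at 1789 and 1757 CPM (log2 fold change -0.30, edgeR adjusted p = 0.838), both below Gcg-only cells in both libraries. The intervals of Pcsk2 (-0.25 to 0.04), Scg5 (-0.25 to 0.14) and Pam (-0.32 to 0.16) were narrow, that of Pcsk1 wide (-2.24 to 2.08), with 6 and 2 UMIs of it in the cells with both hormones. Against Ppy-only cells 3 of 6 were called (3.31% of all genes, 2.04% higher and 1.27% lower): Pcsk1 was 19-fold lower (log2 fold change -4.25, SE 0.69, edgeR adjusted p = 0.00218), Pcsk2 1.44-fold higher (log2 fold change 0.52, SE 0.07, edgeR adjusted p = 0.000712) and Pcsk1n 1.62-fold higher (log2 fold change 0.69, SE 0.12, edgeR adjusted p = 0.00494). For Pcsk1 the fold was 8.44 without library 2 and 26.3 without library 1. The calls of Pcsk2 and Pcsk1n were lost with 23 cells in each sum (edgeR adjusted p = 0.343 and 0.0943), and DESeq2 also called Cpe (adjusted p = 0.0375).

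Cells with Sst and Ppy stood at 65.1 and 78.6 CPM of Pcsk1, 5612 and 5409 CPM of Pcsk2, 2225 and 2154 CPM of Cpe, 1009 and 1006 CPM of Pcsk1n, 1240.0 and 1201 CPM of Scg5 and 1032 and 1042 CPM of Pam. Against Sst-only cells 0 of 6 genes were called by edgeR or by DESeq2. By edgeR 0.0134% of all genes were called, 0.0134% higher and 0% lower. An unadjusted edgeR p under 0.05 was found for 0 of the 6, beside 970 of 14955 genes. The intervals were -0.03 to 0.27 for Pcsk2, -0.17 to 0.22 for Cpe, -0.17 to 0.34 for Pcsk1n, -0.09 to 0.32 for Scg5, -0.16 to 0.34 for Pam and -1.30 to 0.57 for Pcsk1. Against Ppy-only cells 3 of 6 were called, all lower (9.11% of all genes, 4.86% higher and 4.25% lower): Scg5 by 1.79-fold (log2 fold change -0.84, SE 0.10, edgeR adjusted p = 4.88e-05), Cpe by 1.37-fold (log2 fold change -0.46, SE 0.09, edgeR adjusted p = 0.0058) and Pcsk2 by 1.29-fold (log2 fold change -0.37, SE 0.07, edgeR adjusted p = 0.00396). At 23 cells a sum, Cpe (edgeR adjusted p = 0.373) and Pcsk2 (0.715) were no longer called. Whether Ppy went with a different change in Gcg cells than in Sst cells was tested directly, and 0 of 6 genes were called by edgeR or DESeq2 (0.0134% of all genes, 0.00669% higher and 0.00669% lower). Of the 6, the gene with the lowest unadjusted p was Pcsk1n (difference of log2 changes -0.38, SE 0.18, edgeR adjusted p = 0.839). Pcsk1n alone of the 6 had an unadjusted edgeR p under 0.05, beside 886 of 14955 genes.

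Cells with insulin and another hormone, 37 and 27 in number, lay below insulin-only cells in Pcsk1 and above them in Pam in both libraries. They had 434 and 503 CPM of Pcsk1, 6042 and 5314 CPM of Pcsk2, 1219.8 and 1194 CPM of Scg5 and 792 and 827 CPM of Pam. The 12 and 8 cells with insulin and Ppy alone had 1839 and 1533 CPM of Scg5 beside 490.3 and 727 CPM of Pcsk1. The 14 and 8 cells with insulin and Sst alone had 891 and 1029.8 CPM of Scg5 beside 477 and 566 CPM of Pcsk1. The 3 and 2 cells with insulin and Gcg alone had 1241 and 1385 CPM of Scg5 beside 298 and 0 CPM of Pcsk1. Cells with Gcg and Sst had 45.8 and 39 CPM of Pcsk1 and 7820.4 and 8242 CPM of Pcsk2, each between the levels of Gcg-only and Sst-only cells. These groups were small and were described without a test, and 2 cells under 1 barcode and 1 cell with 2 hormones cannot be told apart in them.

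The 6 genes were low where no hormone was present. Against the mean of the log levels of the 4 groups with 1 hormone, all 6 were called lower in cells with none. Of all genes 59.7% were called, 33.4% higher and 26.3% lower. Pcsk2 was 17.2-fold lower (log2 fold change -4.10, SE 0.08, edgeR adjusted p = 3.20e-14), Cpe 15.4-fold, Scg5 12.8-fold, Pcsk1n 8.21-fold, Pam 4.43-fold and Pcsk1 3.29-fold, the last with an adjusted p of 0.00254 by edgeR and the others below it. The Pcsk1 value rested on the library, 16.7-fold without library 2 and 1.73-fold without library 1, and in library 2 only 3 cells held 68.3% of the UMIs. Pcsk1 stood at 2.51 and 27.8 CPM in cells with none. Gcg-only cells had 4.19 and 2.48 CPM, which lowers the mean of the log levels. Much of what remained sat in few cells, since 5 and 4 of the cells with neither marker set had at least 1000 CPM of Pcsk2. Endothelial cells had Pam at 203 and 294 CPM, while leukocyte cells had 9.04 and 17.5 CPM. Pam was found in 92.6% and 90.9% of endothelial cells and, after thinning, in 37% (19.4% to 57.6%) and 42.4% (25.5% to 60.8%), against 0 of 40 and 0 of 39 leukocyte cells, where 0 allows up to 7.5% and 7.69%. Median depth was 14700.0 and 16383 non-hormone UMIs in endothelial and 10431 and 11176 in leukocyte cells. In endothelial cells of library 2, 1 cell held 16 of 17 Pcsk1 UMIs, and the richest cell held 79.2% of the Cpe UMIs.

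Across the cells of one group, the 6 genes rose and fell together only weakly. These rank correlations share a library and the depth of each cell, and carry no test. In insulin-only cells (182 and 190 cells) Spearman's rho was 0.38 and 0.27 between Pcsk1 and Cpe, 0.35 and 0.27 between Pcsk2 and Pam, and 0.19 and 0.27 between both convertases. The convertases, whose CPM ran in opposite order between groups, were thus not opposed between cells of the insulin group. Pcsk1 and its inhibitor gene Pcsk1n were at 0.06 and -0.14, and Pcsk2 and its partner gene Scg5 at 0.08 and 0.09 in insulin-only cells and 0.21 and 0.22 in Gcg-only cells (182 and 174 cells). The share of the hormone in a Gcg-only cell went with Cpe at 0.39 and 0.32 and with Pcsk2 at 0.34 and 0.28. In insulin-only cells the insulin share went with Cpe at 0.30 and 0.31, with Pcsk1 at 0.17 and 0.03, and with Pam at -0.17 and -0.29. The insulin share itself fell with the number of non-hormone UMIs (rho -0.47 and -0.53), and the part of this in the other values was not tested.

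The genes most like each of the 6 were sought by correlation. Over the 12 sums of the 6 hormone groups and 8223 genes (mean level 20 CPM or more), likeness was measured as Pearson's r of log2(CPM + 10), and sums of one group and of one library share their source. The genes most like Pcsk1 were Canx (0.988), Rps6ka2 (0.982) and Wars (0.969). Canx encodes calnexin, a chaperone of the endoplasmic reticulum, and was at 1495 CPM in insulin-only and 776 CPM in Gcg-only cells. Those most like Pcsk2 were Rps18 (0.994), Igsf21 (0.991) and Pdk4 (0.982), and Igsf21 was also among those of Pcsk1n, after Npc2 (0.977) and before Irx1 (0.971). Cpe was followed most closely by Slc7a2 (0.970), Wnk4 (0.967) and Zfp651 (0.966), Scg5 by Mbnl2 (0.979), Snhg1 (0.979) and A1cf (0.978), and Pam by Sdc2 (0.979), Rgs4 (0.979) and Ccdc88c (0.977). Among the 6 genes themselves, Pcsk2 and Pcsk1n had r = 0.953, Pcsk2 and Scg5 0.859, and Pcsk1 and Pcsk2 -0.908.

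Other processing genes were compared between the same groups. Of 18 such genes (convertases, carboxypeptidases, other prohormone proteases and glutaminyl cyclases), 16 passed the filter on low counts, while Cpz and Cpxm2 did not. Between insulin-only and Gcg-only cells 2 were higher, 3 lower and 11 not called, where 25% of all genes were called (median log2 fold change 0.00, 0 over all genes). Cpm, a membrane-bound basic carboxypeptidase, was at 33.5 ± 9.24 CPM in insulin-only and 5.71 and 7.08 CPM in Gcg-only cells (log2 fold change 2.40, SE 0.35, edgeR adjusted p = 0.000119), with 6 and 2 UMIs in Sst-only cells (insulin minus Sst, log2 fold change 1.82, SE 0.50, edgeR adjusted p = 0.0225). Cpn1, a basic carboxypeptidase subunit, was at 235 and 223 CPM in Gcg-only, 96.3 and 118 CPM in insulin-only, 94.5 and 70.4 CPM in Sst-only and 133 and 96.7 CPM in Ppy-only cells. It was higher in Gcg-only than in Sst-only (log2 fold change 1.57, SE 0.24, edgeR adjusted p = 0.000413) and Ppy-only cells (log2 fold change 1.03, SE 0.19, edgeR adjusted p = 0.00318).

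Furin, the general convertase of the Golgi, picked after its values were seen, was at 32.6 ± 0.298 CPM in insulin-only and 57.7 ± 6.27 CPM in Ppy-only cells (insulin minus Ppy, log2 fold change -0.77, SE 0.19, edgeR adjusted p = 0.00804). In the other pairs 2 higher, 1 lower and 13 not called stood for insulin minus Sst (14.5% of all genes called), 2, 3 and 11 for insulin minus Ppy (20.2% of all genes called), 1, 0 and 15 for Gcg minus Sst (12.3% of all genes called), 1, 2 and 13 for Gcg minus Ppy (9.49% of all genes called), and 0, 0 and 16 for Sst minus Ppy by edgeR (9.08%), where 4 had an unadjusted p under 0.05 and DESeq2 called 0, with a median of -0.39 against -0.02 over all genes. The call of Cpxm1 between insulin-only and Sst-only cells rested on 0 and 0 UMIs against 5 and 2 UMIs, with all those of library 1 in 1 cell. Cells with no hormone had 9 of the 16 higher and 4 lower than the mean of the log levels of the groups with 1 hormone, beside 59.7% of all genes, 33.4% higher and 26.3% lower. Among the higher were Pcsk5 (42.8 and 26.9 CPM against 2.21 and 0.842 CPM in insulin-only cells) and Aebp1 (45.9 and 18.5 CPM against 2.95 and 0 CPM).

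**Figure D5:**
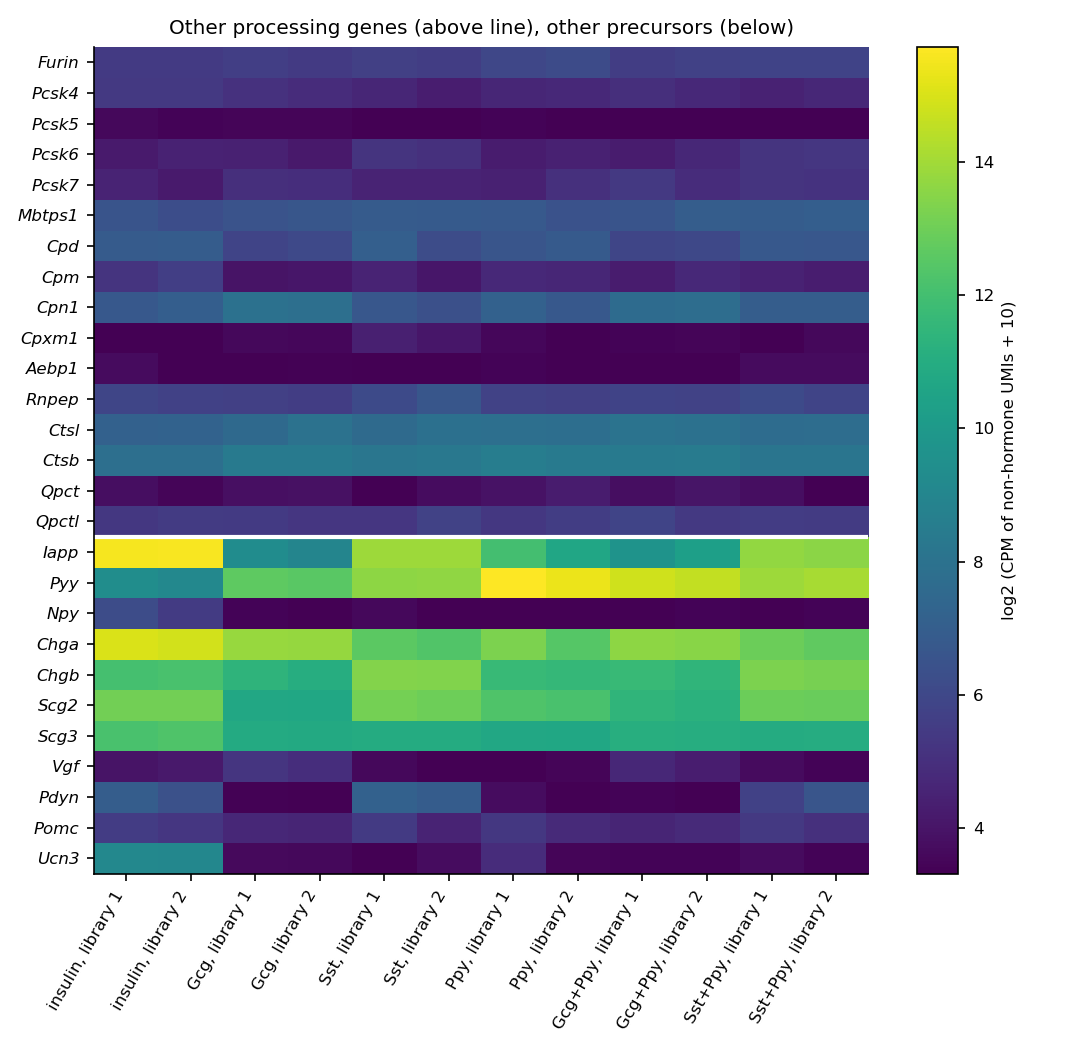
Other processing genes (above the white line) and other precursors and granule proteins (below) that passed the filter, as log2(CPM + 10) of non-hormone UMIs in the 12 sums of 6 hormone groups and 2 libraries; colours compare groups along a row and do not rank rows. Iapp is at 48979 CPM on average in insulin-only and 561 CPM in Gcg-only cells, and Pyy at 47592 CPM in Ppy-only and 602 CPM in insulin-only cells.

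Of 19 other precursors and granule proteins, 11 passed the filter, 18 were in the tables and Nts was not. Between insulin-only and Gcg-only cells 9 were higher and 2 lower, where 25% of all genes were called (median log2 fold change 1.39 against 0). Iapp, the amylin precursor, which is amidated, was at 48332 and 49627 CPM in insulin-only, 15053 and 15357 CPM in Sst-only, 4189.6 and 1586 CPM in Ppy-only and 633 and 489 CPM in Gcg-only cells (insulin minus Gcg, log2 fold change 6.48, SE 0.43, edgeR adjusted p = 2.97e-08). In Ppy-only cells 3 cells held 62% and 82% of the Iapp UMIs. Ucn3, the urocortin 3 precursor, was at 548 and 529.8 CPM in insulin-only and 2.29 and 2.12 CPM in Gcg-only cells (log2 fold change 7.92, SE 0.58, edgeR adjusted p = 9.70e-08). Pyy, the peptide YY precursor, which also yields an amidated peptide, ran the other way, with 53889 and 41295 CPM in Ppy-only, 12679 and 13017 CPM in Sst-only, 6282 and 5981 CPM in Gcg-only and 659 and 546 CPM in insulin-only cells (insulin minus Ppy, log2 fold change -6.25, SE 0.44, edgeR adjusted p = 9.17e-08).

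Pdyn, the prodynorphin gene, was at 118 and 74.1 CPM in insulin-only and 134 and 111 CPM in Sst-only cells, with 1 and 0 UMIs in Gcg-only cells. Ppy-only cells held 4 and 0 UMIs of it. Among granule proteins, Chga was at 32708 and 30408 CPM in insulin-only and 6241 and 5213 CPM in Sst-only cells (insulin minus Sst, log2 fold change 2.62, SE 0.25, edgeR adjusted p = 4.15e-06). Chgb was highest in Sst-only cells (11064 and 10684 CPM against 2659 and 2113 CPM in Gcg-only cells, Gcg minus Sst, log2 fold change -2.06, SE 0.13, edgeR adjusted p = 7.20e-08), and Scg2 was 8706 and 8646 CPM in insulin-only, 9005 and 8176 CPM in Sst-only and 1706 and 1665 CPM in Gcg-only cells (Gcg minus Sst, log2 fold change -2.23, SE 0.23, edgeR adjusted p = 9.86e-06). Vgf was low throughout, at 27 and 20.9 CPM in Gcg-only cells, with 0 and 2 UMIs in Ppy-only and 1 and 0 UMIs in Sst-only cells. The call of Npy rested on few cells, since 3 insulin-only cells held 99.4% and 98.8% of its UMIs. Of the 11 precursors, 4 were higher and 2 lower for insulin minus Sst (14.5% of all genes called), 8 and 1 for insulin minus Ppy (20.2%), 2 and 4 for Gcg minus Sst (12.3%), 2 and 3 for Gcg minus Ppy (9.49%), and 3 and 1 for Sst minus Ppy (9.08%). Between cells with Gcg and Ppy and Gcg-only cells, edgeR called 0 of 16 processing genes and 0 of 11 precursors (0.0401% of all genes). An unadjusted edgeR p under 0.05 was found for 2 and 5 of them, beside 843 of 14955 genes, and DESeq2 called 0 and 1. Between cells with Sst and Ppy and Sst-only cells, edgeR called 0 of 16 and 0 of 11 (0.0134% of all genes). There 1 and 1 had an unadjusted edgeR p under 0.05, beside 970 of 14955 genes, and DESeq2 called 0 and 0.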

How the data were processed

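Islet cells of 2 RevGel-seq libraries were analysed. The authors deposited raw UMI counts per gene and cell barcode, made with Cytonaut v1.2 from reads aligned to exons of GRCm38 (Ensembl release 99), with barcodes chosen by UMI-tools v1.1.2; the aligner is not given in the sources used here. Cells with at least 200 genes and at most 20% mitochondrial UMIs were kept, which removed 0. Scrublet called 8 doublets in each library, which were kept and removed as an alternative. Counts were summed per library over 7 groups (14 sums) without the 5 hormone genes and tested with edgeR 4.0.16 (R 4.3.3) by the quasi-likelihood test with TMM scaling, filterByExpr and Benjamini-Hochberg adjustment within each comparison at 0.05, with 7 residual degrees of freedom. DESeq2 1.42.0 and the other settings of the closing section were alternatives. The deviations of the 2 libraries correlated between groups with r from -0.258 to 0.415 (21 pairs, 2157 genes). Exact intervals cover counting error only. Named were the 6 genes, list genes called at 2-fold or more (at most 6 a comparison) and the 3 most alike genes of each. 1 listed processing gene is not reported here. The 6 genes and the lists were chosen with earlier results of these data known.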

Additional observations from a re-analysis of the deposited data

How the results depend on the processing

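Of 900 log2 fold changes of the 6 genes under other settings, 837 counted as unchanged. For fits with a test this meant the same direction and side of the threshold. Single-library values are differences of log CPM with a small count added and not fits. They have no test and counted as unchanged within 1 SE (54 without library 1 and 57 without library 2). A change of sign of a difference that was not called was not counted for them. In the fits with a test 15 changed sign, 13 lost and 2 gained a call. Of the single-library values, 33 moved by more than 1 SE. The calls of the report that were lost were lost only with 23 cells in each sum, which also tested fewer genes (9958) at a wider spread (biological coefficient of variation 21.6% against 15.4%). Depth limits Pcsk1 in Gcg-only cells, and the 2 libraries of one preparation limit every comparison.

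At 23 cells a sum, the log2 fold changes that lost their call were Cpe -0.36 (insulin minus Gcg), Pam -0.61 (insulin minus Gcg), Pam -0.54 (insulin minus Sst), Pcsk2 -0.27 (insulin minus Ppy), Pam -0.51 (insulin minus Ppy), Pcsk2 0.68 (Gcg minus Ppy), Cpe 0.57 (Gcg minus Ppy), Pcsk2 -0.44 (Sst minus Ppy), Cpe -0.46 (Sst minus Ppy), Pcsk2 0.59 (Gcg with Ppy minus Ppy), Pcsk1n 0.68 (Gcg with Ppy minus Ppy), Pcsk2 -0.27 (Sst with Ppy minus Ppy) and Cpe -0.39 (Sst with Ppy minus Ppy). At 23 cells a sum, the log2 fold changes that changed sign without a call on either side were Scg5 0.039 (Gcg minus Ppy), Pam 0.024 (Sst minus Ppy), Pcsk1 -0.10 (Sst with Ppy minus Ppy) and Pcsk1 -0.24 (the Ppy difference in Gcg minus Sst cells). At 23 cells a sum, the number of all genes called was 917 for insulin minus Gcg (report 3738), 689 for insulin minus Sst (report 2161), 734 for insulin minus Ppy (report 3016), 679 for Gcg minus Sst (report 1842), 207 for Gcg minus Ppy (report 1419), 550 for Sst minus Ppy (report 1358), 1 for Gcg with Ppy minus Gcg (report 6), 82 for Gcg with Ppy minus Ppy (report 495), 345 for Sst with Ppy minus Ppy (report 1362), 4631 for none minus groups with 1 hormone (report 8931) and 1 for the Ppy difference in Gcg minus Sst cells (report 2). At 23 cells a sum, the number of the 6 genes called was 2 for insulin minus Ppy (report 4), 2 for Gcg minus Ppy (report 4), 1 for Sst minus Ppy (report 3), 1 for Gcg with Ppy minus Ppy (report 3) and 1 for Sst with Ppy minus Ppy (report 3). With total UMI scaling (non-hormone UMIs) in place of TMM, the log2 fold changes that changed sign without a call on either side were Pcsk2 -0.073 (insulin minus Sst), Pam 0.056 (Sst minus Ppy) and Cpe -0.00475 (Sst with Ppy minus Sst). Without a filter on low counts, the log2 fold changes that gained a call were Pcsk1n -0.35 (Sst minus Ppy). Without a filter on low counts, the log2 fold changes that changed sign without a call on either side were Pam -0.00386 (Sst with Ppy minus Ppy). Without a filter on low counts, the number of all genes called was 153 for Gcg with Ppy minus Gcg (report 6), 787 for Gcg with Ppy minus Ppy (report 495), 66 for Sst with Ppy minus Sst (report 2) and 73 for the Ppy difference in Gcg minus Sst cells (report 2). By DESeq2, the log2 fold changes that changed sign without a call on either side were Pam 0.011 (Sst minus Ppy) and Cpe -0.014 (Sst with Ppy minus Sst). By DESeq2, the number of all genes called was 14 for Gcg with Ppy minus Gcg (report 6), 4 for Sst with Ppy minus Sst (report 2) and 6 for the Ppy difference in Gcg minus Sst cells (report 2). With a hormone threshold of 2%, the log2 fold changes that changed sign without a call on either side were Pam 0.013 (Sst minus Ppy), Pcsk1 0.037 (Gcg with Ppy minus Gcg) and Cpe -0.077 (Sst with Ppy minus Sst). With a hormone threshold of 2%, the number of all genes called was 0 for Sst with Ppy minus Sst (report 2). With a hormone threshold of 0.5%, the log2 fold changes that changed sign without a call on either side were Pcsk1 0.031 (Gcg with Ppy minus Gcg). Without the called doublets, the log2 fold changes that changed sign without a call on either side were Pcsk1 -0.12 (the Ppy difference in Gcg minus Sst cells). With only the 4 groups with 1 hormone in the fit, the number of all genes called was 2402 for Gcg minus Ppy (report 1419). With the hormone genes kept, the number of all genes called was 1 for Sst with Ppy minus Sst (report 2). The cause was not tested.

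With each library left out in turn, a value and no test, the range was 6.75 to 7.35 for Pcsk1 (insulin minus Gcg), 0.085 to 0.23 for Pcsk2 (insulin minus Sst), 0.67 to 0.77 for Cpe (insulin minus Sst), 0.10 to 0.48 for Pcsk1n (insulin minus Sst), -0.12 to -0.012 for Scg5 (insulin minus Sst), -0.44 to -0.32 for Pcsk2 (insulin minus Ppy), 0.089 to 0.30 for Cpe (insulin minus Ppy), -0.20 to 0.091 for Pcsk1n (insulin minus Ppy), -0.81 to -0.60 for Pam (insulin minus Ppy), 1.13 to 1.2 for Pcsk2 (Gcg minus Sst), 0.95 to 1.18 for Cpe (Gcg minus Sst), 1.25 to 1.43 for Pcsk1n (Gcg minus Sst), 0.91 to 1.04 for Scg5 (Gcg minus Sst), -4.20 to -3.34 for Pcsk1 (Gcg minus Ppy), 0.028 to 0.82 for Pcsk1 (Sst minus Ppy), -0.68 to -0.37 for Cpe (Sst minus Ppy) and -1.10 to -0.90 for Scg5 (Sst minus Ppy).

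Scaling moved the split of calls over all genes. Total UMI scaling here means the sum of non-hormone UMIs without TMM. Total UMI scaling gave 756 higher and 1362 lower for insulin minus Sst (TMM 1118 higher and 1043 lower), 673 higher and 1167 lower for Gcg minus Sst (TMM 898 higher and 944 lower), 844 higher and 493 lower for Sst minus Ppy (TMM 699 higher and 659 lower) and 886 higher and 510 lower for Sst with Ppy minus Ppy (TMM 727 higher and 635 lower), and DESeq2 gave 563 higher and 918 lower for Gcg minus Sst and 671 higher and 412 lower for Sst minus Ppy. The median of all genes stood at -0.11 for insulin minus Sst under total UMI scaling and at 0.14 for none minus groups with 1 hormone by DESeq2. With levels taken as CPM of all UMIs, hormone genes included, 31 levels moved by more than the SD of the libraries and 5 did not. Mean Pcsk1n was then 874 CPM in Sst-only and 715 CPM in Ppy-only cells.

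The sums of one library share its preparation, so a fit with the library as a replicate block was run. Each of the 72 values (6 genes in 12 comparisons) kept its direction and its side of the threshold, so the block changed no call of theirs, with Pcsk1 at 7.44 for insulin minus Gcg and 3731 genes called there against 3738.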
